A study of Homo sapiens with 6 samples.

Results

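The progestin and adipoQ receptor (PAQR) family was followed through 8 of its genes, ADIPOR1, ADIPOR2, PAQR3, PAQR4, PAQR5, PAQR6, PAQR7 and PAQR8, found by name among the 62754 genes of the count table. The family was chosen on measured values, because ADIPOR1 had a large fall and a small p-value in the comparison reported here. The values of ADIPOR1 are therefore a description, with no test. The other 7 members were taken by family name. HK-2, an immortalised human proximal tubule epithelial line, was treated with Cisplatin, a platinum drug that injures the renal tubule. The cells carried either negative control siRNA (CP+siNC) or siRNA directed at NAT10 (CP+siNAT10), with 3 sequenced libraries in each group. Both groups received Cisplatin, and no group without it is analysed here. The comparison therefore asks what differed with siRNA directed at NAT10, an acetyltransferase of RNA and protein, in these Cisplatin-treated cells. With no further siRNA group, loss of NAT10 and other effects of the siRNA cannot be told apart. The labels give no dose, duration or siRNA sequence, and do not say whether the 3 samples of a group were separate cultures, so p-values measure only the spread between these samples, which may be technical. Sequencing depth in CP+siNC came to 19321665, 21602988 and 19464027 counts per library. In CP+siNAT10 it came to 20793709, 21531774 and 25192736.

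PAQR proteins span the membrane several times, with the amino terminus of the adiponectin receptors facing the cytosol, opposite to G protein-coupled receptors. ADIPOR1 and ADIPOR2 bind adiponectin, a hormone secreted by fat cells, signal to AMP-activated protein kinase (AMPK) and to the nuclear receptor PPARα, and hold a zinc-dependent ceramidase activity that turns ceramide into sphingosine. PAQR5, PAQR6, PAQR7 and PAQR8 are membrane progestin receptors, whereas PAQR3 resides in the Golgi membrane, and in the kidney adiponectin signalling is known for its part in tubular and podocyte lipid handling.

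The knockdown was visible in each library. NAT10 (ENSG00000135372, chromosome 11, 34105617 to 34147670, GRCh38) was measured at 75.8, 71.4 and 73.2 CPM (counts scaled by library size and TMM) in CP+siNC and at 41.3, 40.5 and 42.4 CPM in CP+siNAT10. Each silenced library was lower than every control library. The level left was 56.4% of the control level, and the log2 fold change was -0.82 (SE 0.0426, adjusted p = 2.79e-15, by the quasi-likelihood test of edgeR, adjusted after Benjamini and Hochberg over 19874 genes, the test behind every adjusted p given here unless an alternative is named).

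The adiponectin receptors moved apart with NAT10 siRNA. ADIPOR1 stood at 34.7% of its control level, while ADIPOR2 was higher at 116% of its control level. Per length, ADIPOR1 was the most abundant of the 8 genes in CP+siNC, and ADIPOR2 lay just above it in CP+siNAT10. That narrow order depends on the gene lengths used. Among the other members, PAQR3 and the progestin receptor genes PAQR6, PAQR7 and PAQR8 were lower. The call of PAQR6 depends on single libraries and on the tool, and PAQR3 and PAQR7 may share reads with antisense genes. PAQR4 and PAQR5 did not pass the test.

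ADIPOR1 (ENSG00000159346) lies on chromosome 1 from 202940826 to 202958572, on the minus strand. In CP+siNC it was measured at 188, 192 and 192 CPM, from 3531, 4107 and 3694 counts. In CP+siNAT10 it was measured at 68.2, 64.1 and 66.0 CPM, from 1435, 1400 and 1673 counts. The groups were far apart, and within each group the libraries lay close together. The means were 190.4 ± 2.48 and 66.1 ± 2.05 CPM (SD, n = 3), a 2.88-fold lower level and a log2 fold change of -1.53. Of the 19874 genes tested, 37 had a lower log2 fold change. In bulk RNA, fewer cells that express a gene and less of its RNA per cell cannot be told apart. The pseudogenes ADIPOR1P1 and ADIPOR1P2 held 0 to 2 counts per library, and 0.282% of the 50-base stretches of the longest coding ADIPOR1 transcript in GENCODE 29 recur in a transcript of another gene, in each case ADIPOR1P1.

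ADIPOR2 (ENSG00000006831), the paralogue linked mainly to PPARα, lies on chromosome 12 from 1688574 to 1788674. It was measured at 114, 114 and 112 CPM in CP+siNC. In CP+siNAT10 its values were 132, 130 and 131 CPM. All 3 CP+siNAT10 libraries were above the control libraries. The means were 113 ± 1.11 and 131 ± 1.11 CPM (SD, n = 3), and the log2 fold change was 0.21 (SE 0.0341, adjusted p = 9.28e-06). None of its 50-base stretches occurs in a transcript of another gene. The ratio of ADIPOR1 to ADIPOR2 per length was 3.07, 3.17 and 3.20 in CP+siNC. In CP+siNAT10 the ratio was 0.965, 0.921 and 0.947, below 1 in all 3 libraries. Its fall between the groups does not depend on the gene lengths used, but its place below 1 does. The summed level of both receptors was 80.6 ± 0.663 RPKM (CPM per kilobase of gene length, SD, n = 3) in CP+siNC and 43.7 ± 0.842 RPKM in CP+siNAT10, so the rise of ADIPOR2 was smaller than the difference in ADIPOR1.

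**Figure D1:**
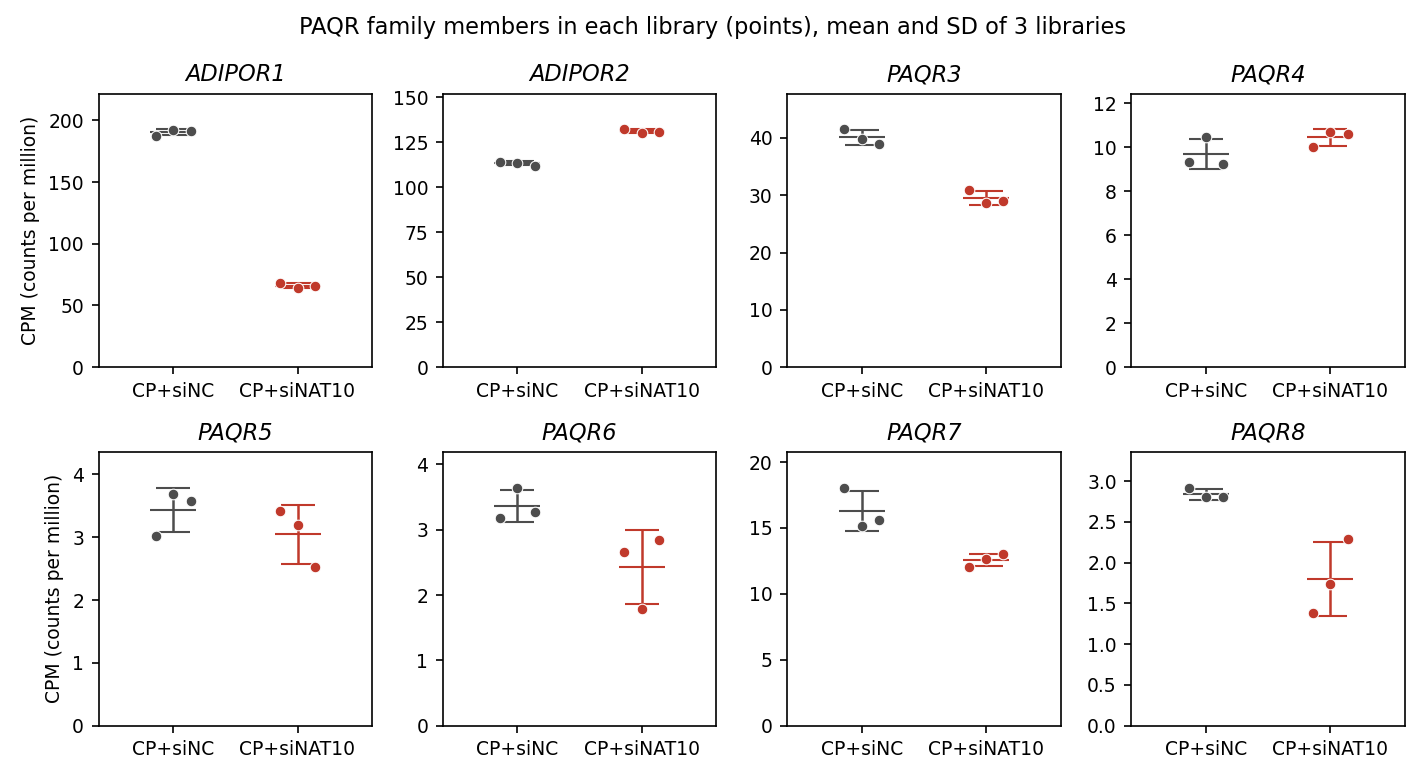
CPM of the 8 PAQR family members in each library (points, 3 per group), with the group mean and SD as bars and every axis starting at 0. ADIPOR1 stood at 190.4 CPM in CP+siNC and 66.1 CPM in CP+siNAT10, ADIPOR2 moved the other way, and the groups overlapped for PAQR4 and PAQR5.

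PAQR3 (ENSG00000163291), the member of the Golgi membrane, lies on chromosome 4 from 78887127 to 78939359. Its values were 41.5, 39.9 and 38.9 CPM in CP+siNC. With NAT10 siRNA they were 31.0, 28.6 and 28.99 CPM. The groups did not overlap, and the gene fell by 0.44 on the log2 scale (SE 0.04996, adjusted p = 2.23e-08). PAQR3 overlaps BMP2K, a kinase gene on the opposite strand. Of the 50-base stretches of its longest coding transcript, 45.5% are antisense to BMP2K transcripts. BMP2K had nearly the same counts, with 758, 848 and 738 in CP+siNC beside 782, 854 and 750 for PAQR3. It fell by a like amount, with a log2 fold change of -0.45 (SE 0.0485, adjusted p = 8.75e-09). The kit marks strand, but no source used here says that the counting did, so the counts of PAQR3 and BMP2K may share reads and the value of PAQR3 is uncertain.

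PAQR4 (ENSG00000162073), grouped by sequence with PAQR3 and the adiponectin receptors, ranged from 9.24 to 10.5 CPM in CP+siNC and from 10.02 to 10.7 CPM in CP+siNAT10. The groups overlapped, and the log2 fold change was 0.11 (95% confidence interval -0.07 to 0.28, adjusted p = 0.328). The value of PAQR4 was 0.16 without CP+siNC replicate 2 and 0.07 without CP+siNC replicate 3. Of its 50-base stretches, 39.8% are antisense to PKMYT1, the WEE1-related kinase gene, which had a log2 fold change of -0.07 (adjusted p = 0.410). PKMYT1 stood at 19.6 CPM in CP+siNC, above PAQR4. If strand was not used in counting, PAQR4 may share reads with it, so the value of PAQR4 is uncertain.

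Of the membrane progestin receptors, PAQR7 (ENSG00000182749), the alpha form, was the most abundant, and PAQR5, PAQR6 and PAQR8 had the lowest levels among the 8 members. It was measured at 18.1, 15.2 and 15.6 CPM in CP+siNC. In CP+siNAT10 it was measured at 12.1, 12.6 and 13.02 CPM. The lowest control library was above the highest CP+siNAT10 library, and the log2 fold change was -0.37 (SE 0.0760, adjusted p = 2.14e-04). The antisense gene ENSG00000236528, which covers 16.6% of its 50-base stretches, also fell, by 0.91 on the log2 scale (SE 0.144, adjusted p = 6.27e-06), from 4.52 ± 0.524 to 2.39 ± 0.192 CPM (SD, n = 3). As for PAQR3, PAQR7 may share reads with its antisense gene if strand was not used in counting.

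PAQR8 (ENSG00000170915), the beta form, had 55, 60 and 54 counts in CP+siNC, or 2.92, 2.80 and 2.80 CPM. In CP+siNAT10 it had 29, 38 and 58 counts, or 1.38, 1.74 and 2.29 CPM. Each CP+siNAT10 value was below each control value, and replicate 3 lay nearest to the controls. The log2 fold change was -0.63 (SE 0.180, adjusted p = 0.00498), the lowest of the 7 members tested. PAQR6 (ENSG00000160781), the delta form, was measured at 3.19, 3.64 and 3.27 CPM in CP+siNC. Its values in CP+siNAT10 were 2.66, 1.78 and 2.84 CPM, from 56, 39 and 72 counts, with replicate 2 the lowest. The groups did not overlap, and the log2 fold change was -0.47 (SE 0.165, adjusted p = 0.0230). Without CP+siNAT10 replicate 2 the log2 fold change was -0.29 (adjusted p = 0.166), without CP+siNC replicate 2 it was -0.41 (adjusted p = 0.0924), and DESeq2 gave -0.47 (adjusted p = 0.0958). The adjusted p of PAQR6 ranged from 0.00956 to 0.166 over all the alternatives, so its call depends on single libraries and on the tool. PAQR5 (ENSG00000137819), the gamma form, ranged from 3.03 to 3.69 CPM in CP+siNC and from 2.52 to 3.42 CPM in CP+siNAT10. The groups overlapped, and the log2 fold change was -0.19 (95% confidence interval -0.50 to 0.12, adjusted p = 0.336), so a difference was not detected. The value of PAQR5 was -0.06 without CP+siNAT10 replicate 3 and -0.28 without CP+siNAT10 replicate 1. PAQR5 has 8.30% of its 50-base stretches antisense to KIF23-AS1, which at 10.1 CPM in CP+siNC exceeded PAQR5, so the same doubt holds for it. Summed over PAQR5, PAQR6, PAQR7 and PAQR8, the level was 7.46 ± 0.368 RPKM in CP+siNC and 5.68 ± 0.280 RPKM in CP+siNAT10 (SD, n = 3). PAQR7 alone made up 5.02 RPKM of the sum in CP+siNC and 3.87 RPKM in CP+siNAT10. The doubt about reads shared with its antisense gene therefore holds for the sum.

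Over the family, 5 of the 7 members other than ADIPOR1 passed the test at an adjusted p of 0.05, beside 44.1% of all genes tested. Of these, 4 were lower, beside 22.3% of all genes, and 1 was higher, beside 21.8%. None of the 7 combined an adjusted p under 0.05 with a change of more than 1 on the log2 scale, the limits that 464 genes or 2.33% were past (711 genes without a filter and 201 with the stricter filter). The groups did not overlap for 6 of the 8 members, which include ADIPOR1, and for 51.4% of all genes. The median log2 fold change of the 7 members was -0.37, beside 0.01 over all genes, whose 5th and 95th percentiles were -0.65 and 0.59. Each of the 7 single values lay inside those percentiles. Members are not replicates, and no test was made over them.

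**Figure D2:**
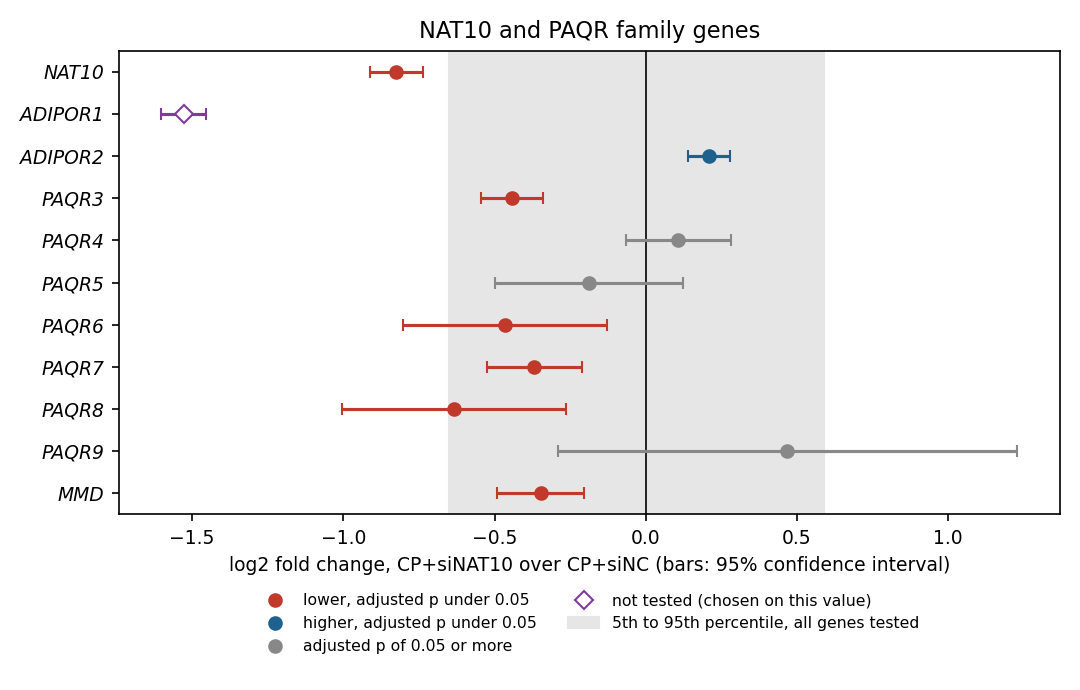
Log2 fold change of NAT10 and of the PAQR family genes, CP+siNAT10 over CP+siNC, with 95% confidence intervals from 3 libraries per group; the grey band spans -0.65 to 0.59, the 5th to 95th percentile of all genes tested. ADIPOR1 at -1.53 (open diamond, not tested) lies outside the band. It was chosen for its fall in these libraries, so its interval takes no account of that choice and is not a test. PAQR8 has the widest interval of the 7 members tested.

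All 8 members had at least 10 counts in 3 libraries and were kept, and none was reported as low. PAQR8, with 29 to 60 counts per library, was the lowest in counts. The family genes outside the list were PAQR9, MMD and MMD2. PAQR9, the epsilon progestin receptor, had 6 to 19 counts per library and reached 10 counts in 3 of the 6 libraries. Its log2 fold change was 0.47 (SE 0.371, adjusted p = 0.328), with overlapping groups, and PAQR9 moved to 0.19 without CP+siNAT10 replicate 2 and to 0.71 without CP+siNAT10 replicate 1. MMD, a relative first found in maturing macrophages, was lower, from 15.9 ± 0.530 to 12.5 ± 0.302 CPM (SD, n = 3), a log2 fold change of -0.35 (SE 0.0705, adjusted p = 1.71e-04). MMD2 had at most 1 count in a library and was not tested.

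Per length, the order of levels in CP+siNC began with ADIPOR1 at 61.2 ± 0.797 RPKM and ADIPOR2 at 19.4 ± 0.190 RPKM (SD, n = 3). PAQR7 followed at 5.02 ± 0.477 RPKM. The next members, PAQR4 at 3.29 ± 0.230 and PAQR3 at 3.23 ± 0.106 RPKM, overlapped and cannot be ordered. PAQR6 stood at 1.33 ± 0.0961 RPKM. PAQR8 at 0.565 ± 0.0135 and PAQR5 at 0.549 ± 0.0569 RPKM overlapped at the low end. In CP+siNAT10 the highest level was that of ADIPOR2, at 22.5 ± 0.190 RPKM. ADIPOR1 was next at 21.2 ± 0.660 RPKM, and the libraries of these genes did not overlap. Their order rests on gene lengths of 5831 bases for ADIPOR2 and 3113 for ADIPOR1, and the lengths of the transcripts expressed were not measured. PAQR7 again followed ADIPOR2 and ADIPOR1, at 3.87 ± 0.148 RPKM. PAQR4 at 3.55 ± 0.126 and PAQR3 at 2.38 ± 0.102 RPKM no longer overlapped, PAQR6 was next, and PAQR5 and PAQR8 overlapped again. ADIPOR1 held 64.7 ± 0.700% of the summed level of the 8 members in CP+siNC and 38.4 ± 0.603% in CP+siNAT10. The 7 other members summed to 33.4 ± 0.638 RPKM in CP+siNC and to 34.1 ± 0.313 RPKM in CP+siNAT10, so the fall of the family total from 94.6 ± 0.479 to 55.3 ± 0.906 RPKM lay with ADIPOR1.

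**Figure D3:**
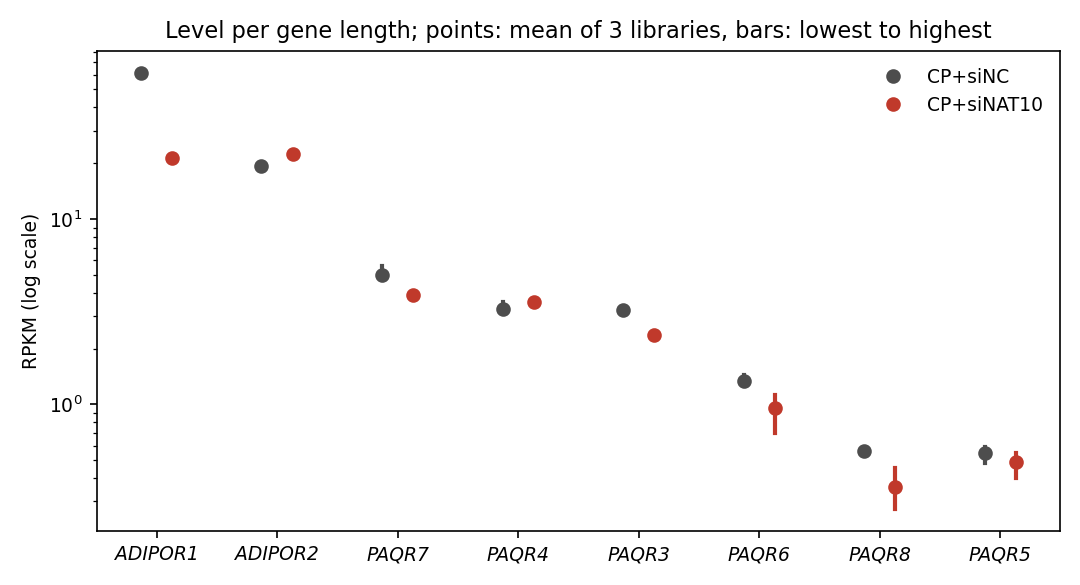
Level per gene length in RPKM on a log axis for the 8 members, ordered by their CP+siNC mean; points are means of 3 libraries and bars run from the lowest to the highest library. ADIPOR1 is above ADIPOR2 in CP+siNC, at 61.2 against 19.4 RPKM, and just below it in CP+siNAT10, at 21.2 against 22.5 RPKM.

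On the ligand side, 2 of 11 genes for adiponectin and related proteins were tested. Adiponectin itself, ADIPOQ, had 0 or 1 count in each library, and CDH13, the T-cadherin that binds adiponectin, had 2 to 6. C1QTNF6, a secreted relative of adiponectin, was lower at 7.95 ± 0.548 CPM against 10.3 ± 0.201 CPM in CP+siNC (SD, n = 3), with a log2 fold change of -0.36 (SE 0.0881, adjusted p = 0.00117). The other tested gene, C1QTNF5, had a log2 fold change of -0.16 (adjusted p = 0.503).

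Downstream of the receptors, 18 of 20 adaptor and AMPK genes were tested. Of these, 10 were higher, beside 21.8% of all genes, and 1 was lower, beside 22.3%, with a median log2 fold change of 0.21. APPL1, the adaptor that binds the cytosolic end of the adiponectin receptors, was measured at 58.1, 57.4 and 53.9 CPM in CP+siNC. In CP+siNAT10 it was measured at 68.0, 74.3 and 70.3 CPM. The groups did not overlap, and APPL1 rose by a log2 fold change of 0.33 (SE 0.0435, adjusted p = 4.12e-07). Its relative APPL2 rose by 0.22 (SE 0.0489, adjusted p = 5.75e-04). The catalytic AMPK subunit genes PRKAA1 and PRKAA2 were higher by 0.14 (adjusted p = 0.00457) and 0.29 (adjusted p = 0.0234) on the same scale. PRKAA2 overlapped between the groups, and its adjusted p was 0.109 with DESeq2, 0.124 and 0.0910 when CP+siNC replicate 1 or 2 was left out, and 0.147 when CP+siNAT10 replicate 3 was left out, within a range of 0.00611 to 0.147 over all alternatives. CAMKK2, a kinase that activates AMPK, rose by 0.58 (SE 0.0546, adjusted p = 6.99e-10), and the regulatory subunit gene PRKAG2 by 0.56 (SE 0.0510, adjusted p = 4.11e-10). ACACA, the acetyl-CoA carboxylase that AMPK inhibits, went from 6.81 ± 0.586 to 16.1 ± 0.421 CPM (SD, n = 3), a log2 fold change of 1.24 (SE 0.0835, adjusted p = 8.17e-13). CAB39, a scaffold of the AMPK-activating kinase LKB1, was the gene that fell, by 0.38 on the log2 scale (SE 0.0504, adjusted p = 3.84e-07).

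Of 14 PPARα genes tested, 7 were lower, beside 22.3% of all genes, and 2 were higher, beside 21.8%, with a median log2 fold change of -0.17. With library size only, 5 were lower and 4 higher. That scaling moved the calls of all genes to 5050 higher and 3786 lower, from 4331 and 4440. The balance thus moved for all genes, not for this list alone. ACADM, a dehydrogenase of fatty acid oxidation, went from 83.3 ± 0.345 to 67.6 ± 0.229 CPM (SD, n = 3), a log2 fold change of -0.30 (SE 0.0374, adjusted p = 1.26e-07). PLIN2, a coat protein of lipid droplets, fell by 0.27 (SE 0.0396, adjusted p = 2.42e-06), and ANGPTL4, an inhibitor of lipoprotein lipase, by 0.28 (SE 0.0570, adjusted p = 1.76e-04). RXRA, the partner receptor of PPARα, rose by 0.48 (SE 0.0851, adjusted p = 3.32e-05). PPARA itself was higher, with 71, 86 and 59 counts in CP+siNC and 94, 113 and 109 in CP+siNAT10. Its log2 fold change was 0.35 (SE 0.134, adjusted p = 0.0342). The adjusted p of PPARA was 0.139 with DESeq2, 0.0556 and 0.191 when CP+siNC replicate 1 or 3 was left out, and 0.156 when CP+siNAT10 replicate 2 was left out, within a range of 0.0201 to 0.191 over all alternatives.

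Among genes that make, cleave or sense ceramide and sphingosine, 33 of 40 were tested, 8 of them lower and 6 higher, with a median log2 fold change of -0.01. The share called was 42.4%, close to the 44.1% of all genes. This list holds ASAH1, the lysosomal ceramidase, which went from 38.6 ± 0.208 to 28.8 ± 0.537 CPM (SD, n = 3), a log2 fold change of -0.42 (SE 0.0479, adjusted p = 2.77e-08). SGPP1, the phosphatase that returns sphingosine 1-phosphate to sphingosine, was measured at 9.45, 9.44 and 10.02 CPM in CP+siNC. In CP+siNAT10 its values were 4.13, 3.71 and 4.58 CPM. Its groups did not overlap, and it fell by 1.21 on the log2 scale (SE 0.105, adjusted p = 1.51e-10), past both limits. S1PR5, a receptor for sphingosine 1-phosphate, fell by 0.81 (SE 0.132, adjusted p = 1.08e-05), and UGCG, which adds glucose to ceramide, by 0.26 (SE 0.0438, adjusted p = 1.48e-05). Of the other ceramidase genes tested, ASAH2 rose by 0.42 (SE 0.112, adjusted p = 0.00267) and ACER3 by 0.29 (SE 0.0918, adjusted p = 0.0116), while ACER2 did not pass the test at -0.18 (adjusted p = 0.549). These genes were named after their values were seen.

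ADIPOR2 is known to guard membrane fluidity by way of fatty acid desaturation, and 7 of 7 genes of that list were tested. Of these, 3 were higher, beside 21.8% of all genes, and 1 was lower, beside 22.3%, with a median log2 fold change of -0.04. SCD, the main stearoyl-CoA desaturase, was measured at 111, 109 and 114 CPM in CP+siNC. In CP+siNAT10 it was measured at 154.5, 158 and 154.6 CPM. The groups did not overlap, and SCD rose by 0.48 (SE 0.0342, adjusted p = 2.49e-12). SCD5, a second desaturase with 24 to 83 counts per library, rose by 1.02 (SE 0.189, adjusted p = 5.37e-05). FADS1, the delta-5 desaturase, fell by 0.15 (SE 0.0372, adjusted p = 0.00126). TLCD2, a limiter of membrane fluidity, was higher by 0.11 (SE 0.0396, adjusted p = 0.0253), a call lost with DESeq2 (adjusted p = 0.0910) and without CP+siNC replicate 2 (0.145), CP+siNC replicate 3 (0.0901) or CP+siNAT10 replicate 2 (0.138), within a range of 0.00313 to 0.145 over all alternatives.

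Around the progestin receptors, PGR, the nuclear progesterone receptor, had 0 counts in all 6 libraries. The other 3 genes of that list passed the test, as did 44.1% of all genes. PGRMC1, a haem-binding protein that has been described as a partner of PAQR7, was measured at 269, 270.1 and 268 CPM in CP+siNC. Its values were 211, 211 and 219.8 CPM in CP+siNAT10. All CP+siNAT10 libraries were lower, with a log2 fold change of -0.33 (SE 0.0325, adjusted p = 1.87e-09). PGRMC2 fell by 0.19 (SE 0.0342, adjusted p = 4.01e-05). NENF, a secreted protein of the same cytochrome b5-like group, rose by 0.18 (SE 0.0493, adjusted p = 0.00317), and its adjusted p was 0.0545 without CP+siNC replicate 1, the highest of a range from 1.07e-04.

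**Figure D4:**
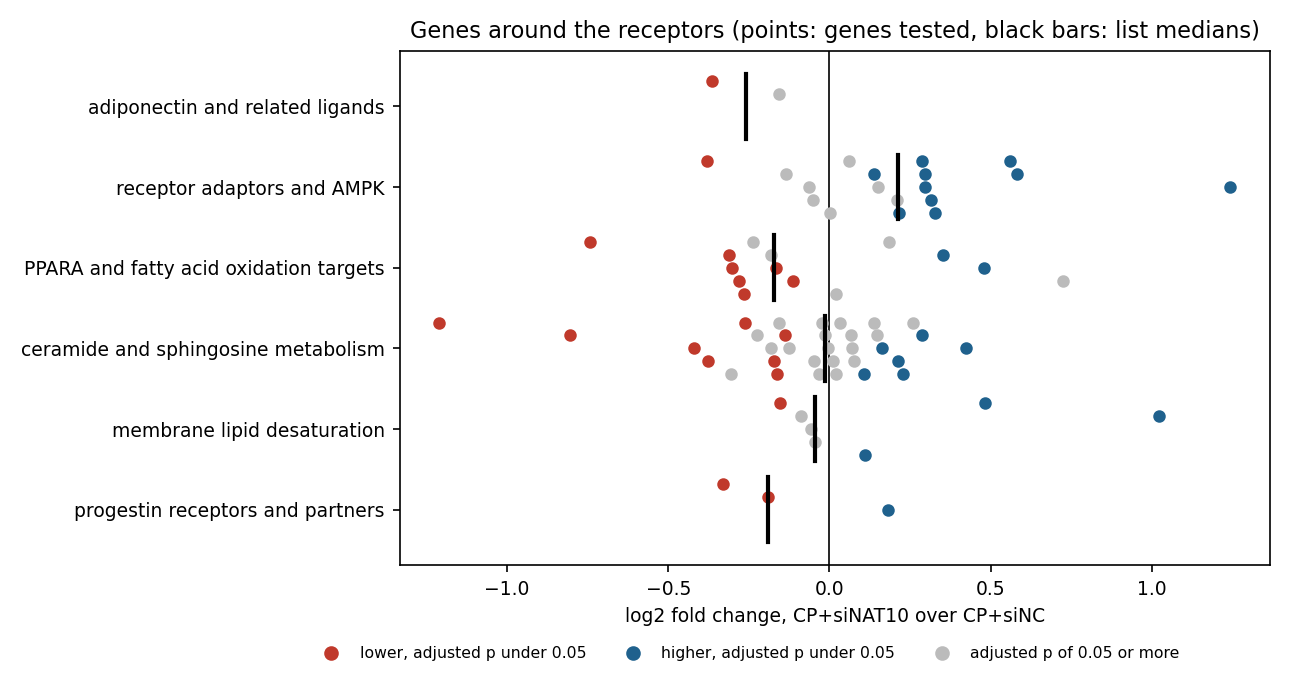
Log2 fold change, CP+siNAT10 over CP+siNC, of the tested genes (points) in 6 lists around the PAQR receptors, coloured by the call at an adjusted p of 0.05, with each list's median as a black bar. The adaptor and AMPK genes have a median of 0.21, with ACACA at 1.24 farthest right, and the PPARα genes a median of -0.17.

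The genes beside ADIPOR1 on chromosome 1 did not show its difference. Of the 8 nearest tested genes, 4 on each side, 1 was higher, beside 21.8% of all genes, 0 were lower, beside 22.3%, and 7 did not pass the test. KLHL12, an adaptor of the CUL3 ubiquitin ligase, lies 12.2 kb away on the side of the lower coordinates and was higher, with a log2 fold change of 0.36 (SE 0.0452, adjusted p = 1.44e-07). CYB5R1, a cytochrome b5 reductase gene on the same strand, 3.30 kb away on the side of the higher coordinates, ranged from 27.6 to 30.5 CPM in CP+siNC and from 26.4 to 28.5 CPM in CP+siNAT10. Its log2 fold change was -0.09 (SE 0.0542, adjusted p = 0.210). RABIF had a log2 fold change of -0.19 (adjusted p = 0.131), TMEM183A of -0.10 (0.0612), PPFIA4 of 0.11 (0.133) and ADORA1, an adenosine receptor gene, of 0.15 (0.140). The pseudogenes ACTG1P25 and HNRNPA1P59 had values of -0.20 (0.681) and 0.18 (0.416). Over the alternatives, HNRNPA1P59 ranged from 0.105 to 0.263 and CYB5R1 from -0.122 to -0.0485, and neither was called in any. TMEM183A passed at 0.0411 with the stricter filter, in a range up to 0.273, and PPFIA4 at 0.0457 with library size only, in a range up to 0.353.

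**Figure D5:**
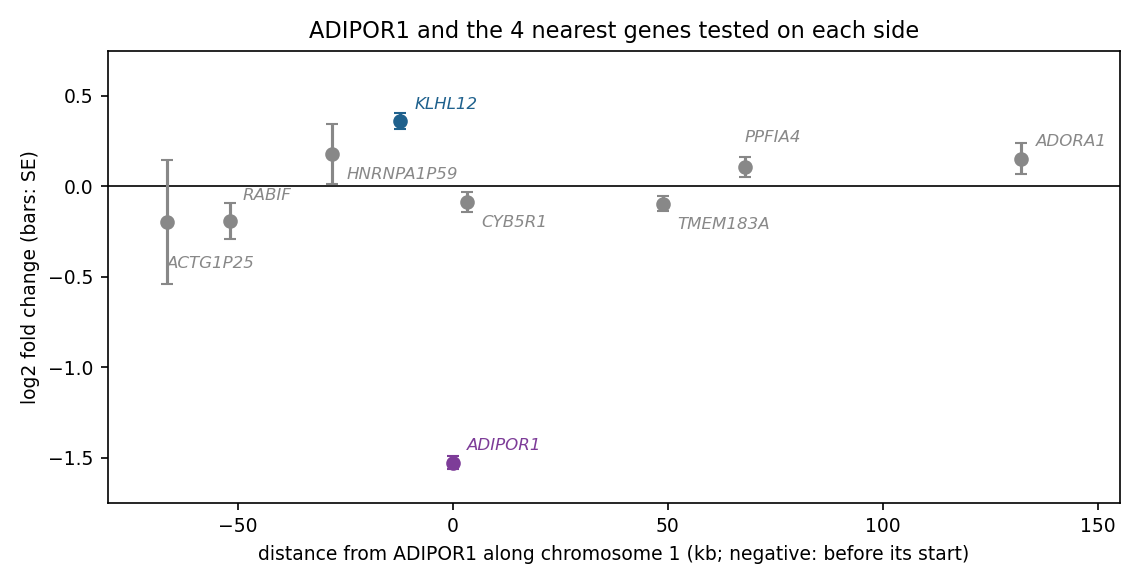
Log2 fold change (points) and SE (bars) of ADIPOR1 and the 4 nearest tested genes on each side, against distance from ADIPOR1 in kb. ADIPOR1 lies at -1.53, and the 8 neighbours lie between -0.20 and 0.36, with KLHL12 the highest. ADIPOR1 was chosen for its fall, and its bar takes no account of that choice.

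Picked on these values out of 12304 genes averaging 5 CPM or more, the 5 whose centred log2 CPM profile over the 6 libraries differed least from that of ADIPOR1, by root mean square, were PNMA8A (0.0472), IFIT2 (0.0519), CCND1 (0.0628), HPRT1 (0.0733) and PEG10 (0.0735). PNMA8A, a retrotransposon-derived gene like PEG10, had a log2 fold change of -1.50, and IFIT2, an interferon-induced gene, of -1.46. CCND1, cyclin D1, went from 279.9 ± 6.16 to 105 ± 2.51 CPM, and HPRT1, the purine salvage enzyme, from 45.4 ± 2.35 to 17.0 ± 0.238 CPM (SD, n = 3). The likeness is over 2 groups of 3 libraries, so any gene with a similar fall and low spread scores high.

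The labelled cell type was read from fixed markers. Of 5 epithelial markers, 4 were present, led by KRT8 at 1455 CPM in CP+siNC and 1450.0 CPM in CP+siNAT10. KRT18, its keratin partner, was lower, at 346 and 269 CPM (log2 fold change -0.36, adjusted p = 3.79e-10), and EPCAM was higher, by 0.31 (adjusted p = 9.02e-04). CDH1, the epithelial cadherin, had 0 to 2 counts. Their summed level was 1999, 2016 and 1964 CPM in CP+siNC and 1917, 1897 and 1931 CPM in CP+siNAT10. Of 10 proximal tubule markers, 6 had at most 10 counts in every library, among them LRP2, CUBN and SLC34A1, and SLC22A6 was at 0. GGT1 was the most abundant and was lower, at 33.2 and 27.4 CPM (log2 fold change -0.28, adjusted p = 9.92e-05). SLC5A2, a glucose transporter, was higher, at 9.30 and 11.5 CPM (log2 fold change 0.31, adjusted p = 0.00363). The sum was 45.5, 45.2 and 43.9 CPM in CP+siNC and 42.6, 39.0 and 41.5 CPM in CP+siNAT10. Few marks of a differentiated proximal tubule were thus seen in these libraries. The 4 endothelial and 5 adipocyte markers had at most 10 counts each, with FABP4 at 0, and among 5 markers of other nephron segments CALB1 alone had more, at 1.42 and 1.44 CPM. Of 5 fibroblast markers, COL1A1 and LUM were present, and COL1A2, DCN and PDGFRB had at most 10 counts. COL1A1 was higher, at 10.5 and 13.6 CPM (log2 fold change 0.38, adjusted p = 6.22e-04), and LUM did not pass the test (0.03, adjusted p = 0.806). Of 4 leukocyte markers, CD68, a lysosomal protein, was at 207 and 272 CPM, with a log2 fold change of 0.40 (SE 0.0378, adjusted p = 7.97e-10), and CD3E had at most 10 counts. PTPRC (7 to 29 counts, with CP+siNAT10 replicate 2 the highest) was higher at an adjusted p of 0.0411 and LST1 (4 to 16 counts) lower at 0.0444, and neither was refitted under the alternatives.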

How the data were processed

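The members and gene lists were chosen with earlier results of these data known. The submitters' notes name Trimmomatic 0.36, STAR 2.5.3a, Subread 1.5.1 (featureCounts), edgeR 3.12.1 and GRCh38. The authors deposited gene counts. The paper states that the library kit is stranded and adds molecular identifiers, meant to correct for duplicates. Whether those identifiers were merged before counting, and strand was used in it, is not given in the sources used here.

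All 6 libraries were compared in R 4.3.3 with edgeR 4.0.16: filterByExpr (minimum count 10, minimum total 15) kept 19874 of 62754 genes, then TMM, glmQLFTest and Benjamini-Hochberg adjustment. SE is the log2 fold change over the root of F. Programs were tested on simulated data. Same-group libraries varied beyond counting noise (chi-square per gene 1.96 to 3.03, against 24.2 to 30.0 across groups). Transcripts came from GENCODE 29.

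Genes named were NAT10, the family, up to 4 called genes with the smallest p in each of 6 lists (a further list that was fitted is not used here), direct partners of the receptors, 8 neighbours, the 5 genes most like ADIPOR1, markers, and overlapping genes by position; C1QTNF5, ASAH2, ACER2 and ACER3 were named after their values were seen. Alternatives were RLE, upper quartile and library size scaling, no filter, at least 50 counts in 3 libraries, DESeq2 1.42.0, a replicate block and leaving out each library.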

Additional observations from a re-analysis of the deposited data

How the results depend on the processing

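Over 13 alternatives, NAT10 kept its fall, with log2 fold changes from -0.85 to -0.79. ADIPOR1 ranged from -1.55 to -1.49. It was chosen for its fall in these same libraries, so this range is a description and no check of that choice. ADIPOR2 stayed higher and PAQR3, PAQR7, PAQR8 and MMD lower at an adjusted p under 0.05 in all 13, and the members called lower numbered 3 or 4. Among the genes refitted, single calls were lost in 16 cases, those of PAQR6, TLCD2, NENF, PPARA and PRKAA2 given in the report. Calls were gained in 2 cases, TMEM183A and PPFIA4. C1QTNF5, ASAH2, ACER2, ACER3, the overlapping genes, the markers and the genes most like ADIPOR1 were not refitted singly, so their calls were not checked. ACTG1P25, not called in any fit, changed sign to 0.14 without CP+siNC replicate 1 and was -0.39 without CP+siNC replicate 2. Genes past both limits numbered 711 without a filter and 201 with the stricter filter, since the filter sets how many low-count genes are tested. PPARα list genes called higher numbered 4 (and lower 5) with library size only and 1 (and lower 6) with DESeq2. They numbered from 1 to 3 when a library was left out. Over all genes, 5050 were called higher and 3786 lower with library size only. With DESeq2 these were 3253 and 3439, and in the main fit 4331 and 4440. The called progestin partner NENF was lost without CP+siNC replicate 1, which left 0 genes of that list called higher, beside 1 in every other alternative. The cause of these changes was not tested. No shared deviation of the same-numbered libraries was detected (correlations 0.01, 0.07 and -0.20). With 3 samples in a group this cannot show whether they were handled in pairs. With a replicate block, 8526 genes were called, beside 8771. Members under about 100 counts, PAQR5, PAQR6 and PAQR8, had SE from 0.151 to 0.180, so small changes of these genes could be missed.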
